A study of Mus musculus with 18 samples.

Results

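Interferon response genes are the genes that detect viral nucleic acid, pass on the interferon signal or are switched on by it, and 49 of them were followed through the differential m6A peaks of the pregnant mouse uterus. The 49 members were listed by name with earlier results of these data known. Their shares beside those of all genes are therefore description. A differential peak was given to a member when its annotation named that gene, or when the gene assigned to the peak was the member and the peak centre lay between that gene's start and end. By this rule 39 of the 49 members (79.6%) had at least 1 peak in the 4 tables, and they held 108 of the 40929 peaks used. Among all 21900 protein-coding genes of RefSeq, 9262 (42.3%) had a peak under the same rule.

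The mice were wild-type ICR females, 8 weeks old when bought and taken on day 5 of pregnancy. Veh mice received saline by intraperitoneal injection from day 1 to day 4. LPS mice received the same saline course and LPS, a bacterial cell wall component, at 0.5 mg/kg on days 3 and 4. Mel+LPS mice received melatonin at 10 mg/kg from day 1 to day 4 in place of saline, and LPS at 0.5 mg/kg on days 3 and 4. Each treatment had 3 replicates of uterus, and each replicate gave an m6A-immunoprecipitated library beside its input, 18 libraries in all. Of the 4 deposited tables of differential peaks, 2 compare LPS with Veh and 2 compare Mel+LPS with LPS, with the peaks up and the peaks down in separate tables (LPS-up, LPS-down, Mel-up and Mel-down). The tables give a single log10 likelihood ratio (LLR) per peak for the difference, which is a strength of evidence and not a fold change. No value per replicate and no read depth stand in the tables, so replicate error could not be computed, no test was run, and the precision of each LLR is unknown. The tables hold no expression levels either, so the tissue label could not be compared with marker genes, and more m6A per transcript and more transcript cannot be told apart. In bulk uterus, fewer cells of a type and less RNA per cell cannot be told apart. The LPS-down table breaks off on chromosome 10 and was used on chromosomes 1 to 9, which carry 23 of the 49 members. Direction follows the deposited tables, and both comparisons use the LPS libraries.

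Interferons bind receptor pairs on the cell surface, and the signal reaches the nucleus through STAT and IRF transcription factors. The genes switched on in this way encode sensors of foreign RNA and DNA, enzymes that block or degrade viral RNA, ISG15 and ubiquitin ligases, and large GTPases that attack pathogen vacuoles. In the uterus, genes of this kind are known to respond to bacterial products and to pregnancy. m6A is a methyl mark on adenosine inside mRNA that is written by the METTL3-METTL14 complex. It is found most often in a GGAC context, in long exons and around the stop codon, and it can shorten the life of a transcript.

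Short stretches of the transcripts show where this context lies inside the member peaks. Each line has 25 bases in transcript direction, 5′ to 3′, from the GENCODE release M21 transcripts on GRCm38, with GGAC and the base after it in capitals. The Ddx58, Ifit1 and Ifi44 stretches lie inside peaks of both comparisons, and those of Oasl1, Rnf213 and Zbp1 lie inside peaks with high LLR.
Ddx58, chr4:40205847-40205871, minus strand: caaagtggaaGGACTttcattttga
Ifit1, chr19:34648773-34648797, plus strand: caaactgaaaGGACAagagaaaaat
Ifi44, chr3:151730982-151731006, minus strand: tcagctacaaGGACCaatcgcaatt
Oasl1, chr5:114936007-114936031, plus strand: gtctgaaacaGGACTgttgctatga
Rnf213, chr11:119440298-119440322, plus strand: accctgccatGGACCcagtggagtt
Zbp1, chr2:173207760-173207784, minus strand: atgaagtccaGGACAtagaaagctc

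The Ddx58, Ifit1 and Zbp1 matches lay near the end of the coding sequence, at positions -46, -69 and -37 relative to the stop codon. The Ifi44 match lay far into the 3′ UTR, at position 1389 from the stop codon. Those of Oasl1 and Rnf213 lay inside the coding sequence, at positions -547 and -9109. GGAC was searched on the transcript strand in 200-base windows of spliced transcript centred on each peak centre that fell on an exon. It was found in 30 of 47 member windows (63.8%, Wilson 95% interval 49.5 to 76.0) and in 65.4% of 10062 windows of all protein-coding genes. The longer form GGACT, which is counted within GGAC, was found in 27.7% of the member windows and in 28.1% of all windows. Over the 4 tables together, the shares of the members were thus close to those of all genes. By table, GGAC was found in 16 of 20 member windows of LPS-up peaks, 1 of 3 of LPS-down peaks, 3 of 9 of Mel-up peaks and 10 of 15 of Mel-down peaks. The shares over all genes, in the same order, were 63.4, 65.6, 68.3 and 61.6%. The member share lay above that of all genes for LPS-up (80.0%, Wilson 95% interval 58.4 to 91.9) and Mel-down peaks (66.7%). It lay below for LPS-down (33.3%) and Mel-up peaks (33.3%, 12.1 to 64.6). Several of the 9 Mel-up windows lie in single exons of Samd9l and Rnf213. The windows are thus not independent, and the intervals do not account for this. A match describes the letters in a window and is not a mapped m6A site.

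The first question was which members held differential peaks after LPS. On all chromosomes, 23 of the 49 members (46.9%, Wilson 95% interval 33.7 to 60.6) had an LPS-up peak, while 20.1% of all protein-coding genes had one. Members also had peaks of any kind more often, so the shares were computed again among genes with a peak in any table. There 59.0% of 39 members (43.4 to 72.9) and 47.6% of all genes had a peak up. On chromosomes 1 to 9, where both directions can be read, 12 of 23 members (52.2%) had a peak up, against 19.9% of all genes there. Among genes with any peak on these chromosomes the shares were 57.1% (36.5 to 75.5) and 44.7%. On these chromosomes 8 of 23 members (34.8%, 18.8 to 55.1) had an LPS-down peak, against 22.0% of all genes. Among genes with any peak there, 38.1% of the members (20.8 to 59.1) and 49.3% of all genes had a peak down. By the rule, 9 of the 23 members were listed up and not down, 5 down and not up, 3 in both directions (Herc6, Samd9l and Trim30a) and 6 in neither. No such split was counted over all genes, so these counts are description and no result about the members.

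The other question was which members held differential peaks when melatonin was given with LPS. Mel-down peaks were found in 20 of 49 members (40.8%, 28.2 to 54.8), against 15.3% of all protein-coding genes. Mel-up peaks were found in 19 of 49 members (38.8%, 26.4 to 52.8), against 25.6% of all genes. Among genes with a peak in any table, a set with the same dependence, the shares were 51.3% of members and 36.2% of all genes for peaks down. For peaks up they were 48.7% (33.9 to 63.8) and 60.6%. On chromosomes 1 to 9, 13 of 23 members (56.5%) had a peak down, against 15.1% of all genes, and 6 (26.1%) had a peak up, against 25.7%. Among genes with any peak on these chromosomes, the shares were 61.9% and 33.8% for peaks down and 28.6% and 57.7% for peaks up. Of the 49 members, 14 were listed down and not up, 13 up and not down, and 6 in both directions by the rule. Here too, no such split was counted over all genes. The intervals count genes and cover neither differences between mice nor the way the members were chosen.

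**Figure D1:**
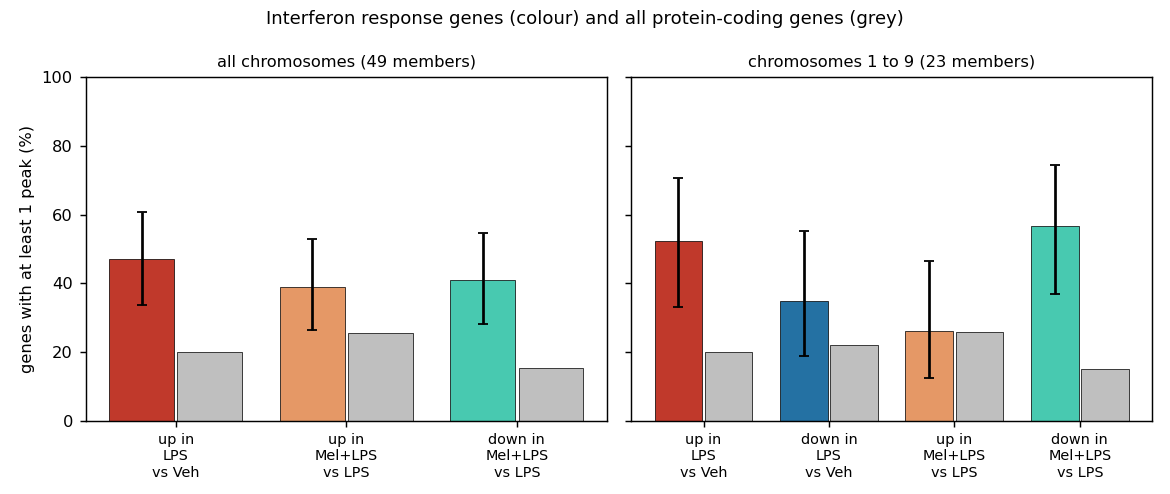
Share of genes (%) with at least 1 differential peak in each table, for interferon response genes (coloured bars, Wilson 95% intervals) and for all protein-coding genes (grey bars), on all chromosomes (49 members) and on chromosomes 1 to 9 (23 members). The coloured bars stand highest over the grey bars for LPS-up peaks (46.9% against 20.1%) and Mel-down peaks (40.8% against 15.3%), and the bars for Mel-up peaks on chromosomes 1 to 9 are nearly level (26.1% against 25.7%).

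The member peaks were of moderate LLR. Of the 108 peaks, 42 were below an LLR of 2 and 41 were at 3 or more. The 37 LPS-up peaks had a median LLR of 2.34, against 2.76 over all peaks under the rule. The 15 LPS-down peaks had a median of 3.63, against 2.57. The 28 Mel-up peaks had a median of 2.67, against 2.18, and the 28 Mel-down peaks one of 2.09, against 3.09. By the deposited annotation, 62 of the 108 peaks were of exon class, 24 of intron, 12 of 3′ UTR, 9 of 5′ UTR and 1 of promoter class. The exon numbers given below are those of this class. Only 38 of the 62 exon-class peaks had their centre on an exon of any GENCODE transcript of the gene. They were 100 to 1024 bases wide. A single peak was held by each of 13 members, and Rnf213 had the most, with 12.

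**Figure D2:**
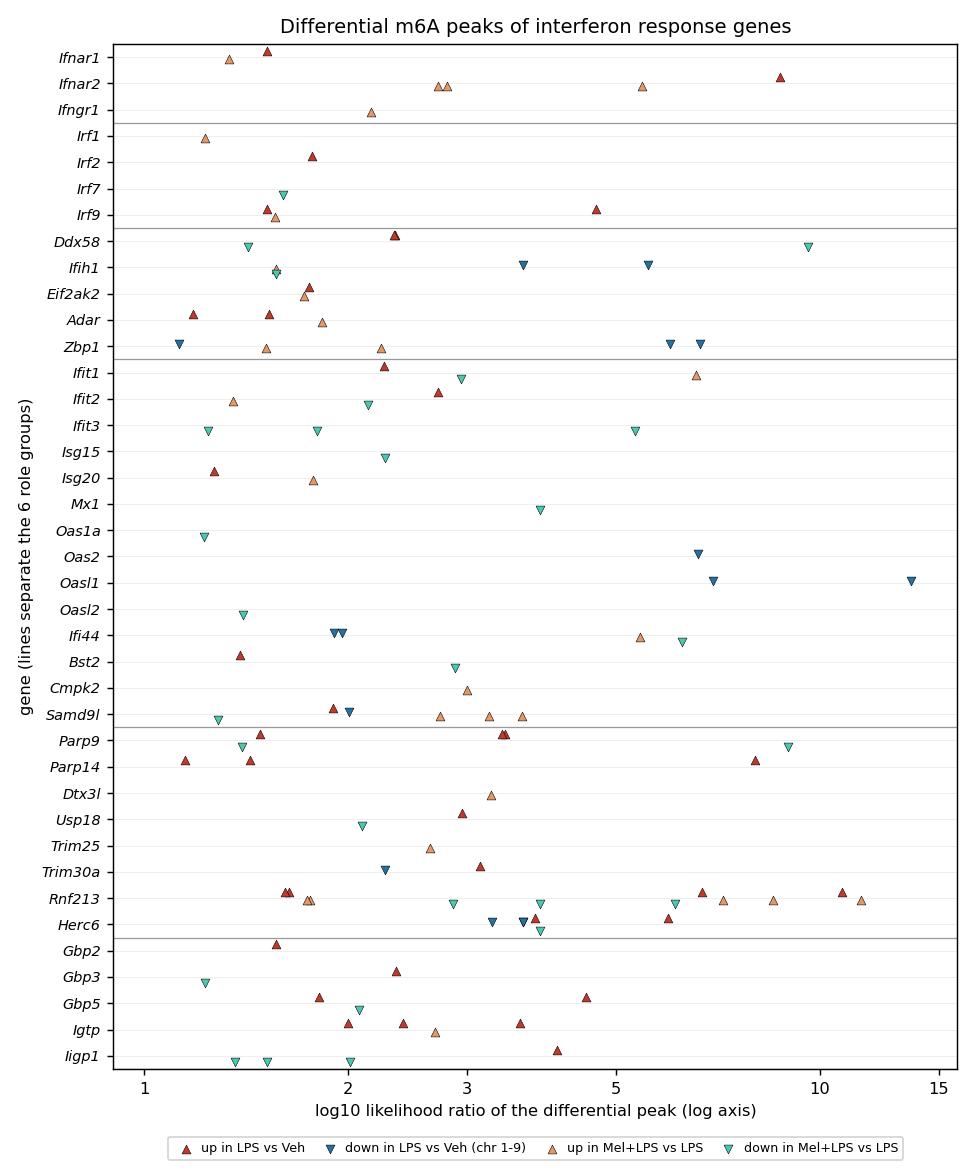
LLR (log axis) of each of the 108 differential peaks of the 39 interferon response genes that have one, by gene, with symbols for the 4 tables (up or down in LPS vs Veh and in Mel+LPS vs LPS) and lines between the 6 role groups. Oasl1 holds the highest value (13.6, LPS-down), followed by Rnf213 (11.5, Mel-up, and 10.8, LPS-up), and the GTPase genes at the foot of the plot show LPS-up, Mel-up and Mel-down peaks.

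Of the 4 receptor genes, 3 had a peak, and none of the 3 had a Mel-down peak. Such a peak was held by 15.3% of all protein-coding genes and 36.2% of those with a peak in any table. The 3 receptor genes lie on chromosomes 10 and 16, where LPS-down peaks could not be read. Ifnar2 encodes the high-affinity binding chain of the type I interferon receptor, and its intron 7 held an LPS-up peak (LLR 8.75, chr16:91397107-91397275). That LLR is shared by 32 peaks of the same table. Ifnar2 also had 3 Mel-up peaks, at exon 4 (LLR 5.45), of 5′ UTR class (2.81) and at exon 5 (2.72). The exon 4 and exon 5 peaks had 13.97 and 13.66% of their bases on exons. The peak of 5′ UTR class had its centre off the exons of protein-coding transcripts. The Ifnar2 up peaks in the 2 comparisons did not overlap. Ifnar1, the other chain, had an LPS-up peak in exon 11 (1.52, chr16:91505097-91505271) and a Mel-up peak in exon 2 (1.34, chr16:91489784-91489998). Ifngr1, the ligand-binding chain of the interferon gamma receptor, had 1 peak, a Mel-up peak at exon 3 (2.17, chr10:19601476-19601599). Of the bases of that peak, 6.45% lay on exons.

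Of the 5 transcription factor genes, 4 had a peak, and Irf9 had the highest LLR. IRF9 is the DNA-binding part of the complex that turns on type I interferon targets. A region at its exon 4 was LPS-up (LLR 4.66, chr14:55605858-55606026) and also Mel-up (1.56, chr14:55605840-55606031). These 2 peaks had 27.8 and 33.9% of their bases on exons. A further Irf9 LPS-up peak lay in exon 9 (1.52). The remaining factors had 1 peak each, all of low LLR, and for Irf1 and Irf9, on chromosomes 11 and 14, LPS-down peaks could not be read. Irf2, which represses many IRF1 targets, was LPS-up at exon 8 (1.77, chr8:46844852-46845050), with 8.04% of the peak's bases on exons. Irf1, an early activator, was Mel-up in intron 3 (1.23, chr11:53773318-53773417). Irf7, which amplifies interferon production, was Mel-down in exon 3 (1.60, chr7:141265243-141265400).

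Among the nucleic acid sensors and RNA-binding enzymes, 5 of 6 genes had a peak, and all 5 had peaks in both comparisons. Over all members, 22 of the 39 with a peak had peaks in both comparisons. No such share was computed over all genes. Ddx58 encodes RIG-I, a cytoplasmic sensor of viral RNA ends. A 200-base region of Ddx58 at exon 4 (chr4:40227781-40227980) was LPS-up (LLR 2.34) and Mel-down (9.63), with the same start and end in both tables. The end of the Ddx58 coding sequence and the start of its 3′ UTR, where the printed stretch lies, was LPS-up (2.35, chr4:40205653-40205917) and Mel-down (1.42, chr4:40205742-40205968). Both Ddx58 sites thus had opposite directions in the 2 comparisons.

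Zbp1, a sensor of left-handed nucleic acid that can start necroptosis, had peaks in the other order. A peak at its exon 7 was LPS-down (LLR 6.0, chr2:173207587-173207792), with 24.8% of its bases on exons. An overlapping peak of intron 7 class, 1 base downstream of an exon, was Mel-up (2.24, chr2:173207424-173207741). A region at its exon 1 was also LPS-down (1.12, chr2:173218655-173218755) and Mel-up (1.51, chr2:173218669-173218775). These exon 1 peaks had 13.9 and 31.8% of their bases on exons. The Zbp1 3′ UTR was LPS-down (6.65, chr2:173206755-173207118) with no peak in the other comparison. No peak of Zbp1 was LPS-up.

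Ifih1 encodes MDA5, the sensor of long double-stranded RNA, and was listed LPS-down at exon 3 (LLR 5.57, chr2:62634938-62635058) and exon 6 (3.63). The exon 6 value is shared by 761 peaks of its table. Ifih1 also had a Mel-up peak in exon 9 and a Mel-down peak in exon 12, with near-equal LLR of 1.57 and 1.56. Eif2ak2 encodes PKR, the kinase that halts translation on double-stranded RNA. It was LPS-up at exon 12 (1.76) and Mel-up at exon 2 (1.72). Adar, which edits adenosine to inosine in double-stranded RNA, was LPS-up in exons 2 (1.18) and 15 (1.53) and Mel-up in a region assigned to the 5′ UTR (1.83). All Eif2ak2 and Adar values were below 2.

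The antiviral effectors were the largest group, and 14 of 19 had a peak. They were listed LPS-up in 5 genes, Mel-up in 6 and Mel-down in 10 of 19, against 20.1, 25.6 and 15.3% of all protein-coding genes. LPS-down peaks were held by 4 of the 10 effectors on chromosomes 1 to 9, against 22.0% of all genes there. The oligoadenylate synthetase genes, which encode antiviral enzymes that respond to double-stranded RNA and relatives without that activity, were listed only as down, each in 1 comparison. Oasl1 held the highest LLR of all member peaks, LPS-down in a region of exon class (13.6, chr5:114932957-114933086). A second Oasl1 peak of exon class was LPS-down (6.95, chr5:114935956-114936204), with 45.4% of its bases on exons of the gene, and the printed stretch lies in that exon part. Oas2 was LPS-down at exon 8 (6.61, chr5:120735851-120736037). Oas1a (1.23, exon 5, chr5:120898225-120898365) and Oasl2 (1.40, 5′ UTR class, chr5:114897667-114897820) were Mel-down with low LLR.

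The Ifit genes, whose products block the translation of foreign RNA, lie side by side on chromosome 19 and are similar in sequence. The end of the Ifit1 coding sequence was LPS-up (LLR 2.27, chr19:34648772-34648907) and Mel-down (2.94, chr19:34648512-34648907). Ifit1 was also Mel-up next to its first exon (6.57, chr19:34640972-34641079). The 3 Ifit2 peaks followed one another within exon 4, Mel-up (1.35, chr19:34573665-34573780), Mel-down (2.15, chr19:34573917-34574020) and LPS-up (2.72, chr19:34574120-34574338), with no overlap. Ifit3 was listed only as Mel-down, in exon 2 (1.24 and 1.80) and in the 3′ UTR (5.34, chr19:34588256-34588637). All 3 genes thus held a Mel-down peak, and Ifit3 held no LPS-up peak.

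Ifi44, an interferon-induced gene with antiproliferative activity, had the same 3′ UTR region down in both comparisons, with an LLR of 1.96 in LPS vs Veh (chr3:151730968-151731124) and 6.25 in Mel+LPS vs LPS (chr3:151730838-151731174). It was also LPS-down at exon 6 (1.91) and Mel-up in intron 6 (5.42), a value that 479 peaks of that table share. Bst2 encodes tetherin, which holds budding virus on the cell surface. Its intron 3 was LPS-up (1.38, chr8:71535170-71535276) and Mel-down (2.88, chr8:71535081-71535274).

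Samd9l, which encodes a restriction factor of poxviruses, was the member found in all 4 tables, and its 6 peaks all lay in exon 2, the long coding exon. Towards the 3′ end of that exon, overlapping regions were LPS-down (LLR 2.01, chr6:3372797-3373136) and Mel-up (3.24, chr6:3373067-3373190). Elsewhere in the same exon, Samd9l was LPS-up (1.90, chr6:3374649-3375082), Mel-up (3.62, chr6:3375142-3375342, and 2.74, chr6:3375566-3375965) and Mel-down (1.29, chr6:3372604-3372717). Neighbouring stretches of a single exon were therefore listed in opposite directions.

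The last 4 effectors had at most 1 peak per table. Isg20, an exonuclease of viral RNA, was LPS-up in its promoter class (1.27) and Mel-up at exon 2 (1.77). Isg15, the ubiquitin-like modifier, was Mel-down over the 3′ end of its transcript (2.28, chr4:156199455-156199981). Cmpk2, a mitochondrial nucleotide kinase, was Mel-up at exon 4 (3.0, chr12:26477218-26477361). Mx1, a dynamin-like antiviral GTPase gene that RefSeq lists here as a transcribed pseudogene, was Mel-down in intron 8 (3.85, chr16:97450174-97450338), a value shared by 1370 peaks of that table.

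All 8 genes for ubiquitin, ISG15 and ADP-ribosyl enzymes had a peak, 32 peaks in all, while 42.3% of all protein-coding genes had one. They were listed LPS-up in 6 genes, Mel-up in 3 and Mel-down in 4 of 8, against 20.1, 25.6 and 15.3% of all protein-coding genes. LPS-down peaks were held by 2 of the 3 on chromosomes 1 to 9, against 22.0% of all genes there. Rnf213 with 12 peaks and Herc6 with 6 held the most. Rnf213 encodes a giant ubiquitin ligase that coats bacteria and is linked to vascular disease, and the gene, with a transcript of 16716 bases, held 12 peaks. Intron 11 of Rnf213 was LPS-up (LLR 10.8, chr11:119415370-119415531) and Mel-down (6.11), with the same start and end in both tables. Its long exon 30 was LPS-up in the stretch that holds the printed sequence (6.69, chr11:119440254-119440409) and Mel-up in the next stretch (11.5, chr11:119440518-119440692). The other 5 peaks at exons 30 and 48 had lower LLR, namely 1.64 and 1.62 LPS-up, 1.76 and 1.74 Mel-up and 2.87 Mel-down. The last 3 Rnf213 peaks were Mel-up in intron 19 (8.54, chr11:119426304-119426525) and at exon 26 (7.18, chr11:119435053-119435221), and Mel-down in intron 37 (3.85, the shared value). The exon 26 peak had 30.2% of its bases on exons. Rnf213 was therefore listed in both directions in Mel+LPS vs LPS, with the highest values in the up direction.

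PARP9 and PARP14 transfer or bind ADP-ribose, and DTX3L is the ubiquitin ligase partner of PARP9. Intron 6 of Parp9 was LPS-up (LLR 3.38, chr16:35959114-35959304) and Mel-down (8.98, chr16:35959095-35959309). A region of the Parp9 coding sequence that the tables assign to the 5′ UTR was likewise up (1.48, chr16:35947765-35948160) and down (1.39, chr16:35947659-35947801). The remaining Parp9 peak, also of 5′ UTR class, was LPS-up (3.42, chr16:35941078-35941288). By the rule Parp14 was LPS-up only, at exon 8 (8.02, chr16:35852620-35852760), exon 14 (1.43) and exon 6 (1.15). The exon 8 peak had 20.6% of its bases on exons. Dtx3l had a single peak by the rule, Mel-up at exon 3 (3.26, chr16:35932477-35932650). All peaks of Parp9 and Parp14 in LPS vs Veh were thus LPS-up, on a chromosome where LPS-down peaks could not be read.

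Usp18, the protease that removes ISG15 and restrains the type I receptor, was LPS-up in intron 8 (LLR 2.95, chr6:121262893-121263058) and Mel-down at the same start (2.1, chr6:121262893-121263015). Herc6, the mouse ligase for ISG15, had 6 peaks, 5 of them in introns. Its intron 13 was LPS-up (3.78, chr6:57644636-57644745) and Mel-down (3.85), values that 1450 and 1370 peaks of these tables share. Other Herc6 peaks were LPS-up in intron 6 (5.97, chr6:57606021-57606214) and LPS-down at exon 6 (3.28) and in introns 6 and 12 (both 3.63, the value shared by 761 peaks). Trim30a, a regulator of Toll-like receptor signalling, was LPS-up in exon 4 (3.14, chr7:104429008-104429301) and down at exon 3 (2.27, chr7:104430011-104430202). Trim25, the ligase that activates RIG-I, was Mel-up at exon 4 (2.65, chr11:89010931-89011073).

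The interferon-inducible GTPases were LPS-up in all 5 genes with a peak, of 7 in the group, while 20.1% of all protein-coding genes and 47.6% of those with a peak in any table had an LPS-up peak. Their products act on vacuoles that hold bacteria and parasites. Igtp had 3 LPS-up peaks, across exon 3 (LLR 3.60, chr11:58206198-58206812, and 2.0, chr11:58206925-58207259) and in the 5′ UTR (2.41, chr11:58201488-58201599), and 1 Mel-up peak next to the last of these (2.70, chr11:58201672-58201797). Iigp1 had the widest member peak, 1024 bases over the end of its coding sequence, LPS-up (4.08, chr18:60390144-60391167). Within it a part was Mel-down (1.52, chr18:60390727-60390828), and 2 further Iigp1 peaks were down in the 3′ UTR (2.02 and 1.36). Intron 10 of Gbp5, in a stretch that touches an exon, was LPS-up (4.51, chr3:142518589-142518688) and Mel-down (2.08, chr3:142518518-142518688), and Gbp5 was also LPS-up at exon 9 (1.82). Gbp3 intron 6 was LPS-up (2.36) and Mel-down (1.23) over the same bases (chr3:142565455-142565571). Gbp2 was LPS-up in exon 8 (1.57, chr3:142633357-142633498). By the rule, 3 of the 5 genes (Gbp3, Gbp5 and Iigp1) were Mel-down, and Igtp was Mel-up. The Gbp genes on chromosome 3 could have been listed LPS-down and were not, while Igtp and Iigp1 lie on chromosomes where this could not be read.

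No peak was found by the rule for Stat2, Mx2, Oas3, Rsad2, Dhx58, Ifi27, Gbp7, Irgm1, Xaf1 and Ifngr2. The Ifit, Oas, Gbp and immunity-related GTPase families hold similar copies, and how reads that match several places were treated, and whether the libraries kept strand, is not given in the sources used here. The values of single members of these families are therefore uncertain. The same holds where genes overlap, since 45 of the 108 peaks carry another gene's name in the column of assigned genes.

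Across the members, 17 pairs of peaks in 14 genes overlapped between the comparisons. Of these, 12 were LPS-up and Mel-down (Bst2, Ddx58 at 2 sites, Gbp3, Gbp5, Herc6, Ifit1, Iigp1, Parp9 at 2 sites, Rnf213 and Usp18). A further 3 were LPS-down and Mel-up (Samd9l and Zbp1 at 2 sites), 1 was down in both (Ifi44) and 1 was up in both (Irf9). The LPS libraries enter both comparisons with opposite sign, no test of the overlap was made, and no count over all genes was set beside it, so these directions describe the sites and are no result about the members. With an LLR of at least 3 in both tables there were 3 pairs, all opposite (Herc6, Rnf213 and Parp9 at intron 6). The Herc6 pair enters only through LLR values shared by 1450 and 1370 peaks of their tables. Ddx58 at exon 4 (2.34 and 9.63), Parp9 at intron 6 (3.38 and 8.98) and Ifi44 (1.96 and 6.25) had the higher LLR in Mel+LPS vs LPS, while Rnf213 (10.8 and 6.11), Zbp1 at exon 7 (6.0 and 2.24) and Irf9 (4.66 and 1.56) had it in LPS vs Veh. Of the 15 pairs with opposite directions, 7 lay in introns, 4 in exons, 3 in the 3′ UTR and 1 in the 5′ UTR by the class of the LPS vs Veh peak.

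**Figure D3:**
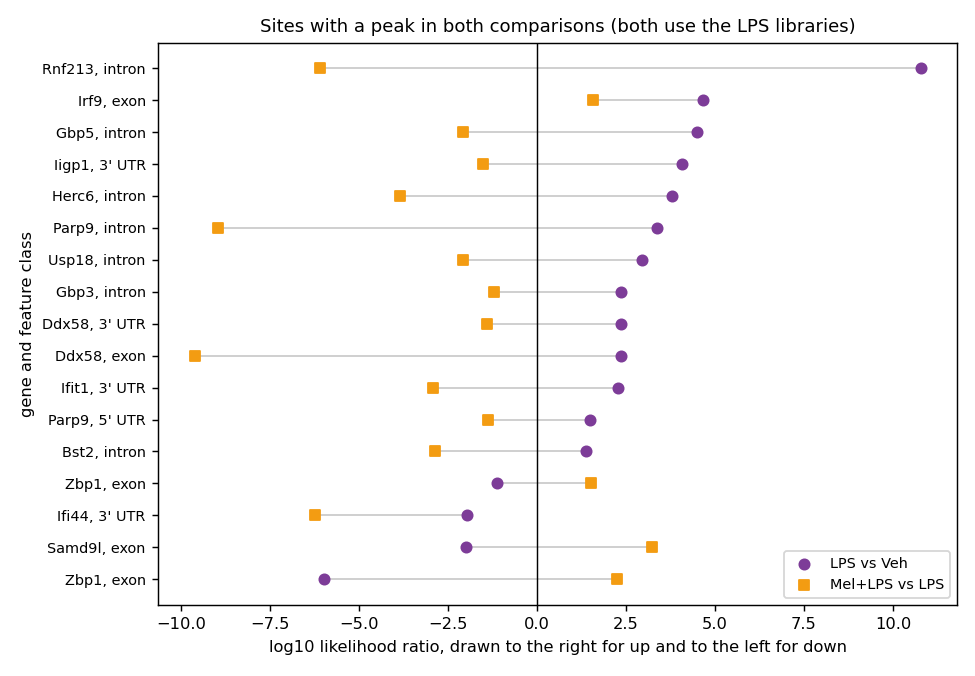
LLR of the 17 member sites with a peak in both comparisons, drawn to the right of 0 for up and to the left for down, with circles for LPS vs Veh, squares for Mel+LPS vs LPS and a line joining each pair. In 15 pairs the circle and the square lie on opposite sides of 0, and in Irf9 (4.66 and 1.56, both up) and Ifi44 (1.96 and 6.25, both down) they lie on the same side.

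The deposited classes of UTR and promoter name no gene, so peaks in them could be missed. When the peak centre was placed on GENCODE exons instead, 32 further peaks in 18 members were found, 26 of the 3′ UTR class and 6 of the promoter class. They include 4 members without a peak by the rule. Gbp7 had 3 LPS-up peaks (LLR 1.54, 1.97 and 2.20) and 1 Mel-up peak (1.89), all in its 3′ UTR. Stat2 (1.21), Dhx58 (1.31) and Xaf1 (1.53) had 1 Mel-down peak each. Mx2, Oas3, Rsad2, Ifi27, Irgm1 and Ifngr2 had none by either way.

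These added peaks also extended members already described. Oasl1 had 2 more LPS-down peaks at its 3′ end (LLR 6.79, chr5:114937235-114937450, and 3.35, chr5:114937582-114937822), so 4 Oasl1 regions were listed in that direction and none in another. Herc6 was LPS-up just past its stop codon (5.95, chr6:57662848-57663045). Another 6 pairs overlapped between the comparisons. Adar (1.53 and 1.33), Eif2ak2 (1.18 and 1.49), Gbp5 (2.51 and 1.67), Herc6 (1.62 and 2.39) and Parp14 (2.29 and 1.77) were LPS-up and Mel-down. Trim25 was up in both (3.06, chr11:89016590-89016888, and 2.81, chr11:89016485-89016738) around its stop codon. Adar was also LPS-down in its 3′ UTR (1.90, chr3:89753285-89753458). Gbp3 was Mel-up in a peak of promoter class (1.28) and Mel-down in its 3′ UTR (1.58).

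On the transcripts, the centres of 48 of the 108 rule peaks lay on exons of protein-coding transcripts. Of these, 39 (81.3%, Wilson 95% interval 68.1 to 89.8) lay in coding sequence, 8 (16.7%, 8.70 to 29.6) in the 3′ UTR and 1 in the 5′ UTR. Over all genes 70.2% lay in coding sequence and 26.3% in the 3′ UTR. By position alone, a further 11 LPS-up, 2 LPS-down, 5 Mel-up and 6 Mel-down member centres lay in the 3′ UTR. The member shares by region thus hold for the rule alone and are no result about where member peaks lie. Within 200 bases of the stop codon lay 10 of the 48 member centres (20.8%, 11.7 to 34.3) and 18.4% of all. By the deposited classes, 0 of 28 member Mel-up peaks were 3′ UTR peaks (Wilson 95% upper limit 12.1%), against 10.6% of all peaks in that table. By position, however, 5 further Mel-up peaks of this class lay on members (Cmpk2, 3.47; Dtx3l, 2.57; Gbp7, 1.89; Ifnar1, 2.49; and Trim25, 2.81), since 3′ UTR peaks enter the rule only through the assigned gene. The count of 0 thus holds for the rule alone. In the table of Mel-down peaks, 7 of 28 were (25.0%, 12.7 to 43.4), against 15.9%. Of the member peaks, 8.11% of LPS-up and 13.3% of LPS-down were 3′ UTR peaks, against 12.8% and 13.9%. These shares too hold for the rule alone, since 11 LPS-up, 3 LPS-down and 7 Mel-down peaks of this class were added by position. Peaks of a gene share their transcript and are not replicates.

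**Figure D4:**
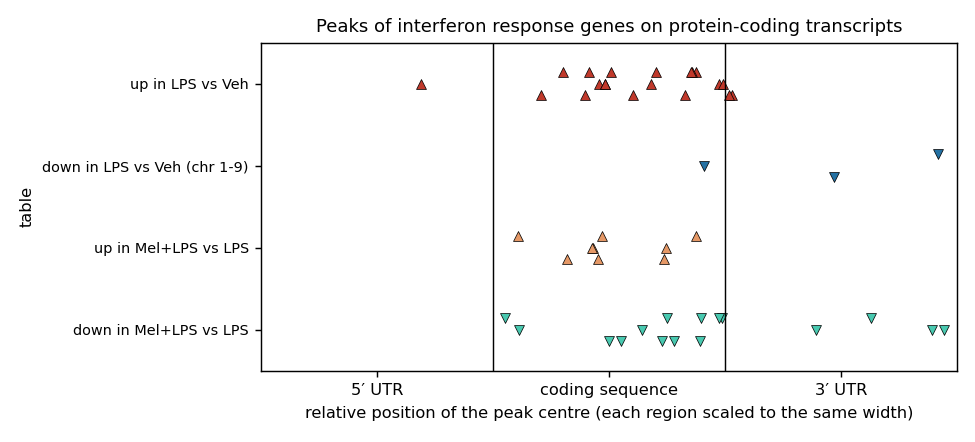
Position of the 48 member peak centres, by the rule, that lie on exons of protein-coding transcripts, with each transcript region scaled to the same width and the 4 tables in rows. Most centres (39 of 48) lie in coding sequence, and the 8 in the 3′ UTR are LPS-up, LPS-down and Mel-down peaks, with no Mel-up peak among them. The peaks found by position alone are not drawn. Of those, 11 LPS-up, 2 LPS-down, 5 Mel-up (Cmpk2, Dtx3l, Gbp7, Ifnar1 and Ifnar2) and 6 Mel-down centres lie in the 3′ UTR.

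Exon class did not mean that a peak lay on an exon. Of the 62 member peaks of exon class, 38 (61.3%) had their centre on an exon of any GENCODE transcript of the gene, against 56.6% of 13147 over all genes. Not all of these transcripts were protein-coding. The Oasl1 peak with an LLR of 13.6 had its centre off the exons of protein-coding transcripts. So had both Ddx58 peaks at exon 4, the Ifih1 peaks at exons 3 and 6, Irf7 at exon 3 and Ifnar1 at exon 2. Among LPS-down centres on an exon, only that of Samd9l lay on a protein-coding transcript. Of the 24 peaks whose centre lay on no exon, 23 had exon sequence only on their 5′ side in transcript direction, as in the Oasl1 peak with an LLR of 6.95, and 0 had it only on the 3′ side. Over all genes 5292 had it on the 5′ side and 67 on the 3′ side. By table, the centre was on an exon in 16 of 21 member LPS-up peaks, 4 of 11 LPS-down, 9 of 20 Mel-up and 9 of 10 Mel-down. In the same order, a median of 100, 37.5, 40.5 and 100% of the bases of a member peak lay on exons. Of the 24 peaks of intron class, 13 lay within 200 bases downstream of an exon (54.2%, against 43.9% of 5617 over all genes), as Rnf213 intron 11 did at 72 bases. Herc6 intron 13, at 18459 bases, lay the farthest from one. Why the peaks lie downstream of exons was not tested.

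**Figure D5:**
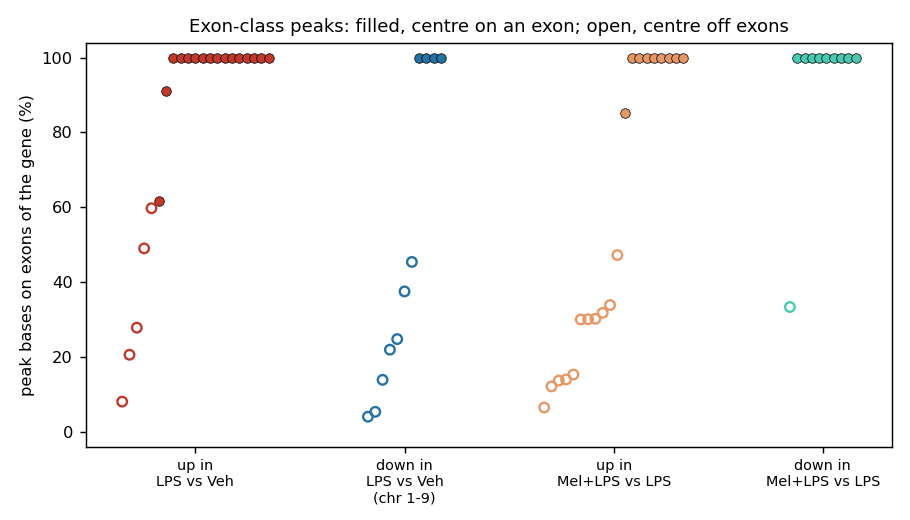
Share of bases (%) on exons of the gene for each of the 62 exon-class peaks of interferon response genes, by table. Filled points are peaks whose centre lies on an exon of any GENCODE transcript, protein-coding or not, and open points are the others. Most points of LPS-up and Mel-down peaks are filled and near 100%, while 7 of 11 LPS-down peaks and 11 of 20 Mel-up peaks are open.

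A second list of 64 genes of the same pathway (kinases, adaptors, chemokines, proteasome and further interferon targets) was set beside the members. This list was also chosen with earlier results of these data known, so it is no independent check. Of these, 38 (59.4%) had a peak in any table by the rule. LPS-up peaks were held by 26 (40.6%), and LPS-down peaks by 9 of the 41 on chromosomes 1 to 9 (22.0%). Mel-up peaks were held by 20 (31.3%) and Mel-down peaks by 14 (21.9%). The backgrounds, in the same order, were 20.1, 22.0, 25.6 and 15.3%. Overlapping peaks of opposite direction lay at 13 sites of this list. Parp12 was LPS-up with an LLR of 13.4 and Mel-down with 4.04, both in an intron. Zc3hav1 (6.18 and 5.85), Ifnlr1 (6.12 and 6.58), Nmi (5.78 and 2.51), Irf5 (3.77 and 2.66, and 3.06 and 1.75) and Cxcl10 (1.77 and 1.96) were also LPS-up and Mel-down. Sp100 (1.99 and 1.69) and Trim21 (1.35 and 1.82, and 1.13 and 3.88) were LPS-down and Mel-up.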

How the data were processed

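Uterine RNA was fragmented, immunoprecipitated with an m6A antibody and sequenced beside its input (3 input and 3 immunoprecipitated libraries for each of 3 treatments). The authors used Fastp for trimming, STAR 2.5.2a for alignment to mm10 and exomePeak2 for peak calling. MACS2 was their tool for differential peaks, and ChIPseeker 1.22.1 assigned these to RefSeq transcripts. The score in the deposited tables is the log10 likelihood ratio of the difference, 1 per peak and comparison, and the lowest is 1.01. How replicates were combined, and the depth per library, is not given in the sources used here. A positional column in bases (start, end) was also used as the authors deposited it.

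The LPS-down table ends inside a line on chromosome 10, so its 155 peaks there were left out, of which 0 were of members. Peaks were assigned by the rule described in the report, and the background is all 21900 protein-coding RefSeq genes. Of the members, 2 are listed as transcribed pseudogenes there and are not in the background. GENCODE release M21 (GRCm38) gave exons, transcript positions and sequences, and all 49 members were matched to RefSeq by symbol. Motif windows were 200 bases. Intervals are Wilson 95% binomial intervals and cover counting only. No test was run, since members and gene lists were chosen with earlier results of these data known and the tables hold no replicate values. The direction of each table was taken from its name.

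Every member with a peak is named, with values in full for those with peaks in both comparisons and for the 10 highest peaks. Of the second list, only genes with overlapping peaks of opposite direction are named, and not all of these are reported here. Alternatives were other assignment rules, LLR minimums of 2 and 3, other feature classes, chromosomes 1 to 9 alone, merging of peaks under 200 bases apart, 1 peak per gene, stricter overlap, and another motif and window. The assignment step was tested on simulated data. Python 3.11.15, numpy 2.4.6, pandas 2.3.3, scipy 1.17.1 and matplotlib 3.10.9 were used. Melatonin alone, and Mel+LPS vs Veh, were not analysed here.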

Additional observations from a re-analysis of the deposited data

How the results depend on the processing

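Of 76 values under alternatives for 18 results, 61 stayed within 1.5 times of the reported count or within the interval or range of the reported value, and 15 moved further. With an LLR of at least 2, member genes fell from 23 to 15 for LPS-up peaks and from 19 to 11 for Mel-up peaks. With at least 3, they were 10 for LPS-up, 5 (of 8) for LPS-down, 7 for Mel-up and 7 (of 20) for Mel-down peaks. Member peaks were then 13 (of 37) for LPS-up, 10 (of 28) for Mel-up and 8 (of 28) for Mel-down, and sites with opposite directions fell from 15 to 3. On chromosomes 1 to 9 alone, 12 genes had LPS-up, 6 Mel-up and 13 Mel-down peaks, since fewer members lie there. By the position of the centre on GENCODE transcripts, 66.7% of LPS-down peaks were in the 3′ UTR in place of 13.3%, over 3 peaks only. GGACT in place of GGAC gave 27.7% in place of 63.8%. Leaving out peaks at a value shared by at least 15 peaks, and adding peaks by position, were chosen after the data were seen. They gave 22, 8, 18 and 18 genes without the 9 member peaks at such values, and 25, 9, 21 and 26 with the added peaks, in the order LPS-up, LPS-down, Mel-up and Mel-down. No paired analysis was possible because the tables hold no value per replicate, and no replicate could be left out for the same reason. The unknown depth limits every statement on a member without a peak, which may lie below what these libraries could show.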
